A study of Caenorhabditis elegans with 2 samples.

Results

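The genes described here are cdc-48.1 and cdc-48.2, which encode the AAA ATPase CDC-48, and ufd-1, npl-4.1 and npl-4.2, which encode its ubiquitin-binding cofactors. They are 5 named genes among the 19973 protein-coding genes (46890 genes of all kinds) annotated on the 6 chromosomes of Caenorhabditis elegans. The set was assembled because cdc-48.1 had one of the strongest sites, so the signal at that gene and its contrast with the others are given as descriptions and were not tested. For each gene, all peaks with a summit within 2000 bp of the 5' end were collected.

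The peaks came from chromatin immunoprecipitation and sequencing (ChIP-seq) of NHR-11, a nuclear hormone receptor, fused to eGFP. All samples were whole late embryos of strain OP305, genotype unc-119(ed3) III with the transgene wgIs305, with both sexes pooled and the age given as unknown. The antibody is labelled nhr-11. They formed a single group of 2 biological replicates, with no second condition. The state of the strain's own nhr-11 gene is not given in the labels, and a whole-embryo sample assigns no peak to a cell type.

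CDC-48, called p97 or VCP in mammals, is a hexameric ATPase that pulls ubiquitin-tagged proteins out of membranes, chromatin and complexes. The UFD-1 and NPL-4 proteins form a pair that hands it such substrates, many of which go on to the proteasome. In C. elegans the 2 CDC-48 proteins act redundantly, and the CDC-48, UFD-1 and NPL-4 machinery is needed for DNA replication in embryos and for degradation of proteins of the endoplasmic reticulum (ER).

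Each deposited list gives a signal per peak in the unit of the authors' caller, and the rank below is the order by signal within a list. The pooled list, called from both replicates, held 9931 peaks with signals of 21.6 to 447. The replicate lists held 25795 peaks (9.63 to 232) and 29222 peaks (7.92 to 246). All 3 lists reach far into the background: a false discovery rate (q-value) of at most 0.05 was given to 30 pooled peaks (0.302%), 152 peaks of replicate 1 (0.589%) and 47 of replicate 2 (0.161%). A share of genes with a pooled peak therefore counts mostly peaks above that rate. No read counts were used, so the depth of the libraries is unknown. The authors' thresholded list, of 101 peaks, holds those that passed their reproducibility (IDR) step.

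The sequence of the cdc-48.1 site is shown first, because it is the strong site among these genes, and beside it the stretch at the same distance, 99 to 252 bp upstream, of 3 others. All are 154 bases from the RefSeq WBcel235 (ce11) genome, read 5' to 3' on the strand of the gene. The cdc-48.1 stretch is the whole pooled peak, chrII:10563506-10563659 on the minus strand, with the narrower peak of replicate 1 in capitals (bases 27 to 118, with the pooled summit at base 71). The cdc-48.2 stretch is chrII:8138244-8138397, plus strand. The npl-4.1 and npl-4.2 stretches, chrII:5631099-5631252 and chrII:5622637-5622790, both plus strand, are shown because they are identical.
cdc-48.1: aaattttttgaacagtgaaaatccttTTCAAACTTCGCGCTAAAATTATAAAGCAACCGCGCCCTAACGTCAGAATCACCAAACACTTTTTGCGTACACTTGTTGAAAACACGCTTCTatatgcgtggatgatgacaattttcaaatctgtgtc
cdc-48.2: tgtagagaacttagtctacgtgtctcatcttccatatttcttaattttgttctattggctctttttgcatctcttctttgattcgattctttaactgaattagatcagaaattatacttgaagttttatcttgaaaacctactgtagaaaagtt
npl-4.1: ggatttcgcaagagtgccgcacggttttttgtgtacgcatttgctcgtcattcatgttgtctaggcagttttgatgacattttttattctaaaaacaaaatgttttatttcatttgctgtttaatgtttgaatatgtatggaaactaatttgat
npl-4.2: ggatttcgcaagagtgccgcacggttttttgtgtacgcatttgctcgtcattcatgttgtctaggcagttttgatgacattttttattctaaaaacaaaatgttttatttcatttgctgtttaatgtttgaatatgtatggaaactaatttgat

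Among the 5 genes, only cdc-48.1 had a peak in the pooled list. That is 1 of 5, beside 33.2% of all protein-coding genes with a pooled summit within 2000 bp. The same gene was the 1 member with a thresholded summit (0.596% of protein-coding genes) and the 1 member with a summit in the pooled and both replicate lists (28.1% of protein-coding genes). In replicate 1, 3 members had a summit (65.6% of protein-coding genes), and in replicate 2, 2 members had one (70.2%). Both npl-4 genes had none in any of the 3 lists, as did 14.3% of protein-coding genes. As cdc-48.1 was chosen for its site, nothing is read from its part in these counts.

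**Figure D1:**
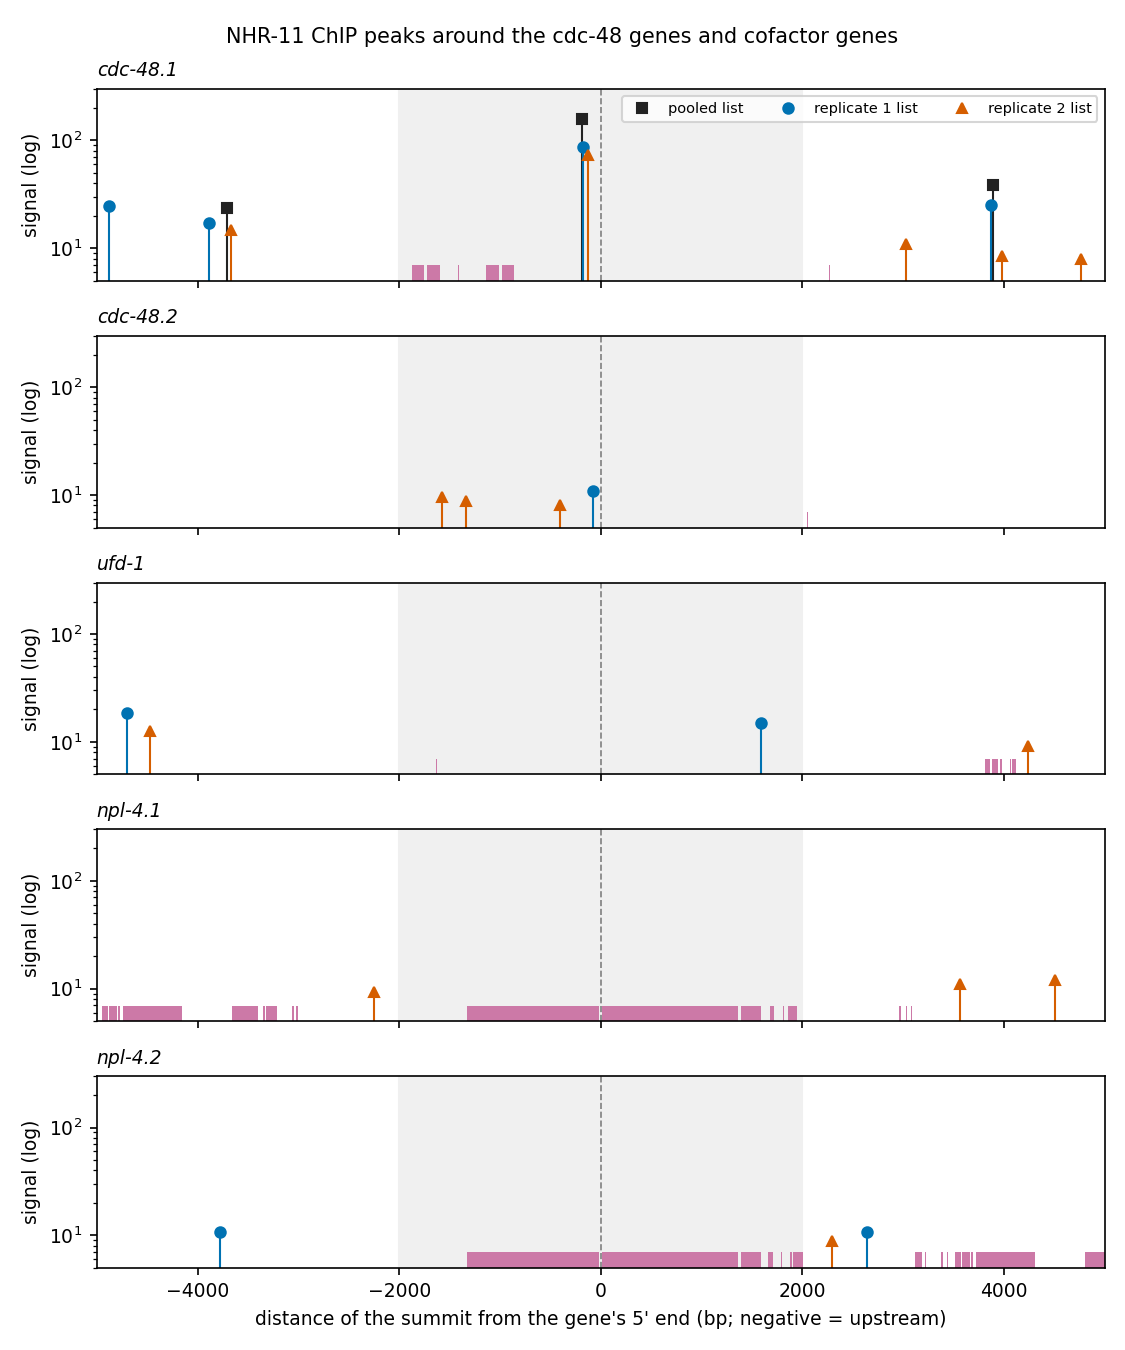
Peaks around the 5 genes. Each panel gives the signal (log axis) of every peak whose summit lies within 5000 bp of the 5' end, by distance in bp along the gene's direction; squares are pooled, circles replicate 1 and triangles replicate 2 peaks, the grey area is the 2000 bp window, and the strips along the bottom mark 32-base words found more than once in the genome. The site 182 bp upstream of cdc-48.1 stands above all others, and the grey areas of npl-4.1 and npl-4.2 hold no peak.

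cdc-48.1 (WBGene00007352) lies on chromosome II at 10560036 to 10563407, on the minus strand. Its site had a pooled signal of 157, ranked 2 of 9931, with a summit 182 bp upstream of the 5' end. Replicate 1 gave 86.2, at rank 2, with its summit 181 bp upstream. Replicate 2 gave 73.5, at rank 3, with its summit 130 bp upstream. Both replicates were thus high, and the summits lay 51 bp apart. Of the 100 thresholded sites with a peak in both replicates, 2 were in the top 3 of both, this one and the strongest site of the series, and 27 were in the top 100 of both. The median summit offset over the 100 sites was 36.0 bp, and 64 of them had an offset no larger than that of cdc-48.1. The log2 ratio of replicate 1 to replicate 2 at the site was 0.23, beside a median of 0.16 and an SD of 0.71 over the 100 sites. With the signals divided by the median of each list, this ratio was -0.02. All 100 sites had passed the reproducibility step and cdc-48.1 was chosen for its strong site, so closeness of the replicates was partly built in.

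The pooled signal at cdc-48.1 was 6.07 times the median of the pooled list and 1.21 times that of the third-ranked peak (130.0). In the replicates it was 6.74 and 6.85 times the median of the list. It was also the strongest of the 1718 pooled peaks on chromosome II, where the next had a signal of 92.1. No protein-coding gene had a higher pooled or replicate 1 signal within 2000 bp of its 5' end. In replicate 2, 1 gene did, the ribosomal protein gene rpl-3, with 74.7 at 283 bp upstream.

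**Figure D2:**
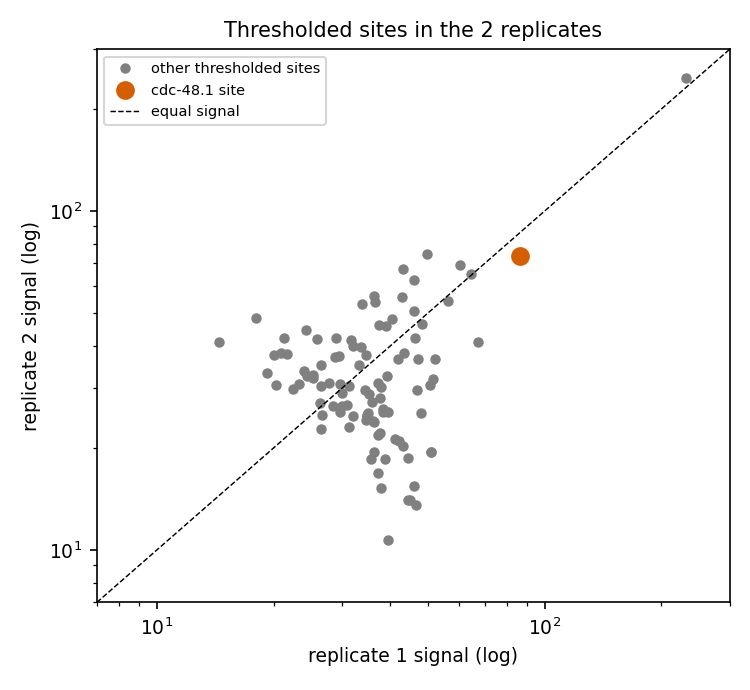
Signal of thresholded sites in replicate 1 (x axis) and replicate 2 (y axis), both log scales in the unit of the authors' caller, with the line of equal signal. The cdc-48.1 site, at 86.2 and 73.5, lies near the line and away from the main group; the point at the upper right is the strongest site of the series.

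The cdc-48.1 peak was narrow. It spanned 154 bp in the pooled list, where 4 of 9931 peaks were narrower than the usual 356 bp. In replicate 1 it spanned 92 bp, where 2 of 25795 peaks were narrower than the usual 370 bp, the other being the strongest site. In replicate 2 the peak kept the usual 356 bp (10563359 to 10563714). The replicate 1 peak lay wholly inside the pooled peak and inside that of replicate 2.

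The site was intergenic, and cdc-48.1 was the nearest gene by its 5' end. The next was C06A1.9, a small nucleolar RNA (snoRNA) gene on the same strand in an intron of cdc-48.1, with its 5' end 525 bp from the summit. The protein-coding genes C06A1.6 and C06A1.7 also had their 5' ends within 2000 bp, at 1089 and 1302 bp. C06A1.6 lies upstream of cdc-48.1 on the same strand, with a gap of 705 bp, so that the site falls between its 3' end and the start of cdc-48.1. The summit was 1302 bp upstream of C06A1.7, which points away on the other strand.

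The other peaks within 5000 bp of the cdc-48.1 5' end were lower than this site. The nearest other pooled summit lay 3705 bp upstream, with a signal of 23.7 at rank 7157. Replicate 1 gave a peak of 17.1 there (rank 4706) and replicate 2 one of 14.7 (rank 4869). The next lay 3893 bp downstream of the 5' end, 522 bp past the 3' end of the gene, with 38.9 at rank 676. Replicate 1 gave a peak of 25.4 beside that place, at rank 615 of its list, and replicate 2 one of 8.57, at rank 25137. In signal and rank, the replicates were thus close at the first of these places and apart at the second. In position it was the reverse. The summits of replicates 1 and 2 lay 3890 and 3665 bp upstream at the first place, and 3869 and 3980 bp downstream at the second. The pooled q-values at the 2 places were 0.906 and 0.393. Replicate 1 had a further peak of 24.8 at 4883 bp upstream (rank 696). A single replicate 2 peak lay in the gene, in a coding exon 3030 bp from the 5' end, with 10.9.

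The paralog cdc-48.2 (WBGene00008053; chromosome II, 8138496 to 8141230, plus strand) had no pooled peak within 5000 bp. Replicate 1 listed 1 peak within 2000 bp, 79 bp upstream, with a signal of 10.8 at rank 20169 of 25795. Replicate 2 listed 3, at 400, 1334 and 1577 bp upstream, with signals of 8.15, 8.75 and 9.55 at ranks 27801, 24061 and 19813 of 29222. All 4 lay near the floor of their lists, at 1.03 to 1.21 times the lowest signal and with q-values of 0.899 to 0.952. The farthest of them lay 1 bp from the 5' end of ctns-1, a cystinosin gene that points the other way. The replicate 1 peak and the replicate 2 peak at 400 bp overlapped by 42 bp, with summits 321 bp apart. Of all protein-coding genes, 56.7% had a stronger replicate 1 peak and 55.8% a stronger replicate 2 peak.

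**Figure D3:**
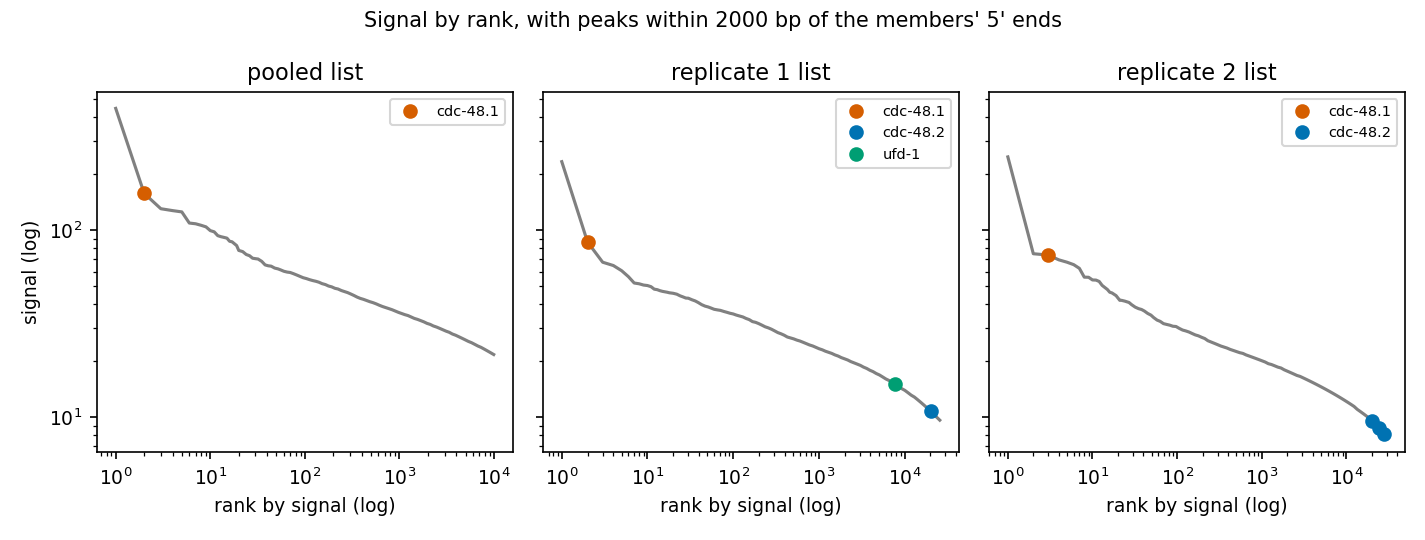
Signal (y, log) by rank (x, log) in the pooled, replicate 1 and replicate 2 lists, with the peaks within 2000 bp of the 5' ends of the members marked. The cdc-48.1 peak is at rank 2 or 3 in each list, while the cdc-48.2 and ufd-1 peaks lie at ranks from 7755 on.

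The highest replicate 1 signal at any other member was 15.0, at ufd-1, and cdc-48.1 was 5.75 times as high. The highest replicate 2 signal at any other member was 9.55, at cdc-48.2, and cdc-48.1 was 7.69 times as high. For the pooled list no ratio was formed, because the 4 other genes had no peak in it. The lowest signal in that list was 21.6.

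The coding sequences of cdc-48.1 and cdc-48.2 were 76.3% identical over 2417 aligned bases. Their 500 bp upstream of the 5' end aligned at 55.3% identity over 459 bases. Gaps were left out of these shares and no unrelated pair was aligned, so the upstream value has no baseline. The longest run of bases shared by the cdc-48.1 peak and the cdc-48.2 stretch printed above was 8 on the same strand and 7 on the opposite strand. For the stretch at ufd-1 these were 7 and 10, and for the npl-4 genes 8 and 9. The GC content was 37.0% in the cdc-48.1 peak and 29.9% in the cdc-48.2 stretch, beside a median of 33.8% at the same distance upstream of all protein-coding genes; 66.6% of those stretches had a lower GC content than the cdc-48.1 peak.

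Both strands of the cdc-48.1 peak were searched for 5 strings of letters, and 0 matches were found for each, in the whole peak and within 50 bp of the summit. AGGTCA is a half-site of nuclear hormone receptors, and 3.45% of 154-base windows around pooled summits held it, beside 4.16% of the upstream stretches of all protein-coding genes. A variant of it is GGGTCA, held by 2.37% of those windows and 2.33% of the upstream stretches. The GA repeat GAGAGA was held by 11.3% and 11.7%, and the heat shock element core GAANNTTC by 9.91% and 9.85%, in the same order. ACGTG, held by 11.5% of those windows and found in binding sites of the unfolded protein response factor XBP-1, matched once in the cdc-48.2 stretch and 2 times at ufd-1, and 14.2% of the same upstream stretches of all protein-coding genes held it. The 5 strings cannot match the same bases on 1 strand, apart from part overlaps at their ends, and the lack of a match says only that these letters are not in the window.

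ufd-1 (WBGene00006733; chromosome IV, 12329408 to 12330890, minus strand), which encodes the ubiquitin-binding partner of NPL-4, also had no pooled peak within 5000 bp. Replicate 1 listed 1 peak within 2000 bp, with a signal of 15.0 at rank 7755 and a q-value of 0.730. Its summit lay 1590 bp downstream of the 5' end, 108 bp past the 3' end of the gene, so it was not at the annotated start. Replicate 2 listed none in the window. F19B6.1, on the same strand, ends 86 bp before ufd-1 starts. Both replicates had a peak in an intron of F19B6.1, 4696 and 4477 bp upstream of ufd-1, with signals of 18.4 and 12.5. These summits lay 489 and 708 bp from the 5' end of F19B6.1.

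npl-4.1 (WBGene00019120; 5631351 to 5633284) and npl-4.2 (WBGene00019121; 5622889 to 5624959) lie on the plus strand of chromosome II with their 5' ends 8462 bp apart. Neither had a peak in any list within 2000 bp. The nearest peaks lay just outside: in replicate 2, one 2245 bp upstream of npl-4.1 with a signal of 9.23 and one 2293 bp downstream of npl-4.2 with 8.92, and in replicate 1 one 2640 bp downstream of npl-4.2 with 10.7. They ranked 21453, 23088 and 20559 in their lists. The members' peaks just inside the window were those of ufd-1 at 1590 bp and cdc-48.2 at 1577 bp.

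The npl-4 loci are near-copies of each other. Their coding sequences were identical at 1579 of 1587 bases (99.5%), and the 500 bp upstream were identical at all 500 bases. Of the 4001 words of 32 bases that start within 2000 bp of the 5' end, 75.0% at npl-4.1 and 75.7% at npl-4.2 occurred more than once in the genome, on either strand. At both genes, the longest repeated stretches held words starting at -1325 to -18 and at 15 to 1358 bp, counted from the 5' end. Each word covers 32 bases from its start. At cdc-48.2 the share was 0.0250% and at ufd-1 0.200%. At cdc-48.1 it was 12.9%, with all but 1 of these words between -1934 and -797 bp, away from the peak, and its pooled peak matched no other place in the genome at 90% identity over 50 bp.

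Genes with such repeated windows seldom had a peak anywhere in these lists. Of the 472 protein-coding genes with at least 50% repeated words, 366 (77.5%) had no summit within 2000 bp in any of the 3 lists, and 12 (2.54%) had a pooled summit. Of the 16281 genes with under 10% repeated words, 1668 (10.2%) had none and 5875 (36.1%) had a pooled summit. A 32-base word from those npl-4 stretches matches both genes equally well. How reads that match several places were treated before the peaks were called is not given in the sources used here, and its part in the empty npl-4 windows was not tested.

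**Figure D4:**
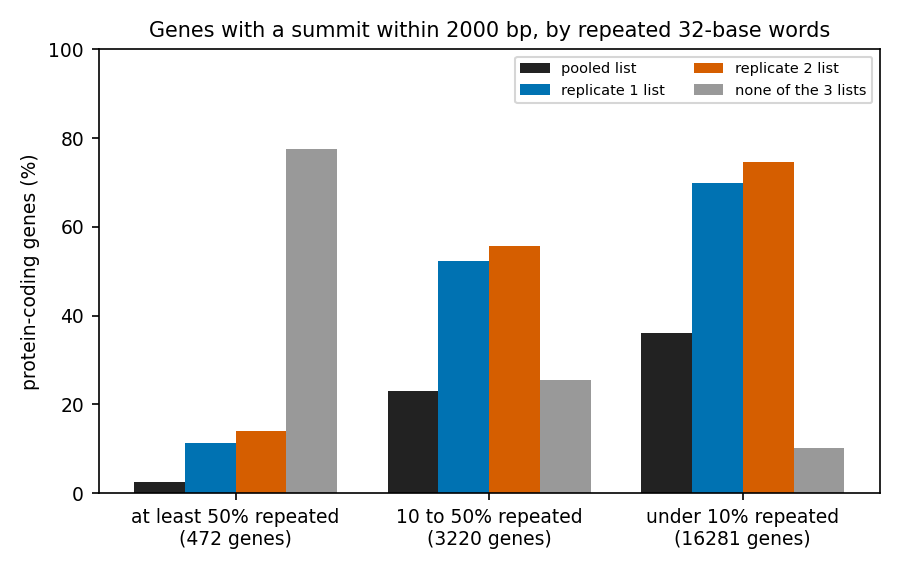
Share of protein-coding genes (%, from 0) with a summit within 2000 bp of the 5' end in the pooled, replicate 1 and replicate 2 lists, or in none of the 3, grouped by the share of repeated 32-base words in the window. The npl-4 genes belong to the left group, where 77.5% of genes have none, against 10.2% in the right group, which holds cdc-48.2 and ufd-1; cdc-48.1 is in the middle group.

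Further genes were taken from 4 lists: cofactors and adaptors of CDC-48, ER-associated degradation, proteasome subunits and other AAA ATPases. The last list holds relatives by protein family and not by pathway, and it is included in the totals. Of 67 genes matched by symbol, 31 (46.3%) had a pooled summit within 2000 bp, beside the 33.2% of all protein-coding genes given above, and 4 (5.97%) had a thresholded one, beside 0.596%. The listed gene itself was the nearest by 5' end, among genes of all kinds, at 10 of the 31 (32.3%) and at 1 of the 4. Over all protein-coding genes this was so at 59.5% of those with a pooled peak and at 39.5% of those with a thresholded one. No test was made on these lists.

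Among the cofactors and adaptors, 11 of 17 genes (64.7%) had a pooled peak, beside 33.2% of all protein-coding genes. The 17 leave out the cofactor genes ufd-1, npl-4.1 and npl-4.2, which had no pooled peak, so the share does not cover all cofactors. At several of the 11, another gene was nearer to the summit by its 5' end. The median strongest signal of the 11 was 29.0, beside 26.8 over all protein-coding genes with a pooled peak. The strongest was at ufd-3, a ubiquitin-binding cofactor of CDC-48, 79 bp upstream on chromosome II (9940496 to 9940851), with a pooled signal of 70.6 at rank 29, in the thresholded list. Replicate 1 gave the ufd-3 peak 24.3 (rank 794) and replicate 2 gave it 44.6 (rank 19), so it stood out more in replicate 2. Of the 4 thresholded sites in these lists, it was the one with the listed gene nearest. Those 4 sites had q-values of 0.0508 to 0.129, above 0.05, and 30 of the 101 thresholded peaks had one of at most 0.05. The next in the list were rad-23 (33.9), a shuttle of ubiquitin-tagged proteins to the proteasome, ubxn-1 (32.8) and ubxn-3 (31.5), adaptors with a UBX domain, and aip-1 (30.2), an AN1-type zinc finger gene. All 4 had q-values of 0.539 to 0.683. Another gene was nearer at ubxn-1 (F23C8.8, 279 bp). The replicates gave 17.6 and 17.5 at ubxn-1. Replicate 2 was lower than replicate 1 at ubxn-3 (8.09, rank 28148, against 25.5) and at aip-1 (10.7, rank 14587, against 19.2). The rad-23 peak, 173 bp downstream of its 5' end, also lay 568 bp upstream of the proteasome gene rpn-12, and replicate 2 had no peak that overlapped it.

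Of 8 genes of ER-associated degradation, 4 had a pooled peak. The strongest signal was 62.1, 1244 bp downstream of the 5' end of the ubiquitin-conjugating enzyme gene ubc-7 (38.3 in replicate 1, 26.0 in replicate 2), in the thresholded list. That summit lay only 38 bp from the 5' end of rpac-19, a gene for an RNA polymerase subunit. The other 3 genes with a pooled peak had signals of 28.7 (marc-6, a ubiquitin ligase of the ER membrane), 24.6 (cup-2, a Derlin) and 21.9 (ubc-6, another ubiquitin-conjugating enzyme). Another gene was nearer at cup-2 (F25D7.11, 0 bp) and at ubc-6 (aka-1, 510 bp). The 4 peaks had q-values of 0.129 to 0.948, and replicate 2 had no peak that overlapped the one at marc-6.

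Of 33 proteasome genes, 15 (45.5%) had a pooled peak, with a median of 31.6, beside the 33.2% of all protein-coding genes with one. The site 180 bp upstream of rpn-3, a subunit of the regulatory particle, had a pooled signal of 70.3 (34.4 in replicate 1, 29.6 in replicate 2), with the noncoding RNA gene C30C11.14 nearer, at 78 bp. The site at rpn-8, another such subunit, had 60.2, but lay 1834 bp downstream of the 5' end, and was far stronger in replicate 2 (41.1, rank 26) than in replicate 1 (14.5, rank 8773). Both were in the thresholded list. Next came pbs-5 (50.1, 1216 bp upstream), a catalytic-core gene, then rpn-12 (33.9, the peak shared with rad-23) and pas-2 (33.4), another catalytic-core gene. Another gene was nearer at pbs-5 (K05C4.2, 286 bp) and at pas-2 (D1054.3, 195 bp). Of 9 other AAA ATPase genes, 1 (11.1%) had a pooled peak, the mitochondrial ATPase gene atad-3, with a signal of 54.3 at 389 bp upstream. In the replicate 1 and replicate 2 lists, 77.8% and 55.6% of these 9 had a peak, beside 65.6% and 70.2% of protein-coding genes.

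**Figure D5:**
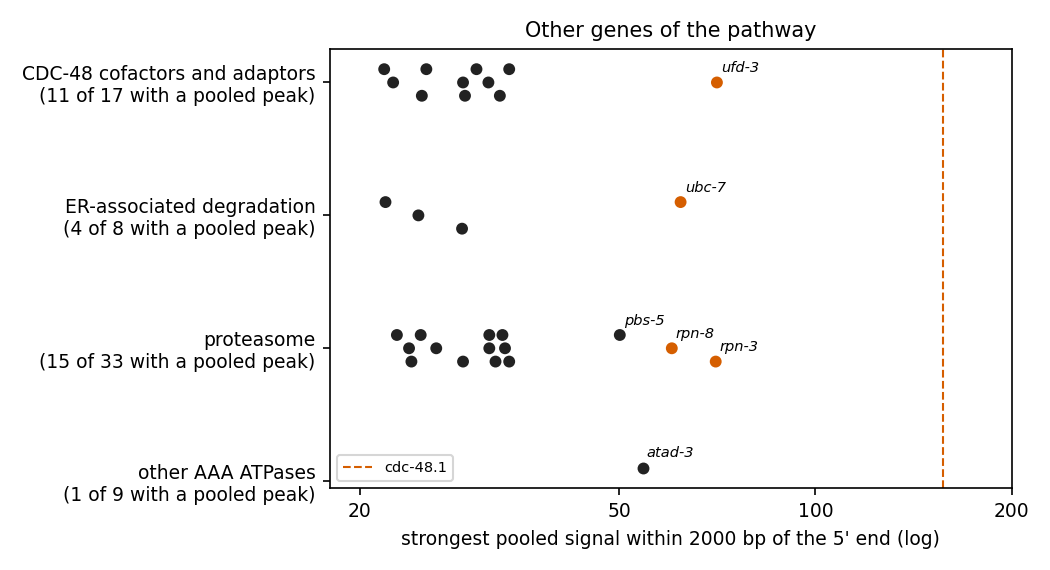
Strongest pooled signal within 2000 bp of the 5' end (x, log) for each listed gene with a pooled peak, by list; orange points are genes with a thresholded summit, and the dashed line is cdc-48.1. All the listed genes lie at 70.6 or lower, below the 157 of cdc-48.1.

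The genes most like cdc-48.1 in signal were found by the distance in log2 signal over the pooled, replicate 1 and replicate 2 lists, among 4233 protein-coding genes (cdc-48.1 included) whose strongest pooled peak was overlapped by a peak in both replicate lists. The distance was 0.00 for C06A1.6 and C06A1.7, since they share the cdc-48.1 site. The next were nspc-17 and nspc-18 on chromosome X, which share a peak with signals of 127, 64.6 and 65.3, at a distance of 0.54. After them came ftt-2, a 14-3-3 gene on chromosome X, 505 bp from a peak with 130.0, 60.6 and 69.3, at a distance of 0.58. Only 2 samples stand behind these values, and the pooled list contains both.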

How the data were processed

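NHR-11 ChIP-seq of whole late embryos was given as 2 biological replicates of 1 group. According to the deposited descriptions, peaks were called once for each replicate and once for both together, each time with a further file that all these calls share and whose kind is not stated, presumably the control named in the labels. The thresholded list was derived from those lists. Neither the caller nor the aligner, nor any setting, is given in the sources used here. Peak signal was taken as the authors deposited it; scaling between libraries is not stated, so a ratio between replicates also holds differences in depth. The deposited −log10 column was read as a q-value within each list and turned back into a rate. The ce10 lists were not used, and the control was not analysed here.

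Coordinates are on ce11 (WBcel235), counted from 1, with Ensembl 115 genes and the RefSeq genome. A peak belonged to a gene where its summit lay within 2000 bp of the outermost annotated 5' end. Several genes can share a peak. Coding and upstream sequences were aligned globally with Biopython 1.88. Matches elsewhere were sought with BLAST 2.17.0 (at least 90% identity over 50 bp), and repeated words of 32 bases were counted on both strands. Assignment and word counting were tested on simulated data.

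The members, lists, motifs and naming rule were chosen with earlier results of these data known. The text names the members, up to 5 genes per list, genes near the peaks of either, and the 5 genes most like cdc-48.1. One listed gene (fign-1) was not matched by symbol. The repeated-word count was added after the peaks at the members had been seen. No test was made. Python 3.11.15, numpy 2.4.6, pandas 2.3.3 and matplotlib 3.10.9 were used.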

Additional observations from a re-analysis of the deposited data

How the results depend on the processing

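Of 26 alternative values, 17 stayed within a spread or within 1.5 times the count, but several of these could not have changed. The spread was 0.71 for the log2 ratio. For the cdc-48.1 signal it was the SD of the 2 replicate signals, 8.97, which does not measure the spread of the pooled signal. The cdc-48.1 site and the count of 1 member with a pooled peak were the same with windows of 500, 1000 and 5000 bp. They were also the same with the 5' ends of all annotated transcripts. The window of 5000 bp was chosen after seeing the data. For the cdc-48.1 signal these outcomes were fixed, since its summit lies 182 bp from the only annotated 5' end. No pooled peak on chromosome II is stronger. The count could not change with the 500 and 1000 bp windows either, as the other members had no pooled peak within 2000 bp. Taking 1 replicate list in place of the pooled one gave cdc-48.1 a signal of 73.5 to 86.2, on another scale than the pooled 157, and a count of 2 to 3 members with a peak, since those lists hold more weak peaks. The count of 1 member in all 3 lists fell to 0 where each replicate peak had to overlap the pooled peak by 50% of both, because the pooled cdc-48.1 peak covers 43.3% of the wider replicate 2 peak. Divided by the median over thresholded sites, the log2 ratio of the replicates at cdc-48.1 was 0.00. Of the 67 pathway genes, 14 (20.9%) had a pooled peak within 500 bp and 19 (28.4%) within 1000 bp, beside 13.2% and 20.7% of protein-coding genes, and 47 to 53 had one in a single replicate list (70.1% in replicate 1 and 79.1% in replicate 2, beside 65.6% and 70.2% of protein-coding genes). The ratio of cdc-48.1 to the other members could not be formed in the pooled list. No paired analysis was possible because there was only 1 group. With 2 replicates and an unknown depth, a missing peak is not evidence of missing binding.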

Other observations

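A further pair of strings was looked up after the cdc-48.1 peak sequence had been seen, so the matches are descriptions only. TTCGCGC, which resembles binding sites of E2F-family factors, starts at base 34 of the printed strand, where the pooled summit is base 71. It was held by 0.795% of 154-base windows around pooled summits and by 1.19% of the same upstream stretches of all protein-coding genes. TGACGT, the core of cyclic-AMP response elements, matched the opposite strand from base 67 on, across the summit base, and was held by 4.15% of pooled windows and 5.44% of upstream stretches. None of the stretches at cdc-48.2, ufd-1, npl-4.1 and npl-4.2 held either string.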
